A study of Homo sapiens with 6 samples.

Results

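Nonsense-mediated decay is the surveillance pathway that removes mRNAs on which ribosomes stop too early, and it also sets the level of many normal mRNAs. The 9 factors described here are core proteins of the pathway, chosen with earlier results of these data known. UPF1, UPF2, UPF3A and UPF3B recognise the target. SMG1, SMG8 and SMG9 form the kinase complex that phosphorylates UPF1. SMG5 and SMG6 bind phosphorylated UPF1 and bring about decay. All 9 passed the filter on low counts, out of 22580 genes tested and 58523 genes with an annotated transcript in the tables. The 9 genes had 93 isoforms in the tables, and their values were compared between treated and untreated cultures and between coding isoforms and the others.

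The study sequenced total RNA of A375, an established line of human melanoma cells, in 6 independent cultures. The 3 treated cultures (replicates 4, 5 and 6) received hMGL for 24 h, and the 3 control cultures (replicates 1, 2 and 3) were left untreated. hMGL is an engineered human enzyme that degrades methionine, an essential amino acid. The treated and control cultures shared the cell line and the medium, and the labels list neither a vehicle nor an inactive enzyme for the control cultures. One cell line was used, so the p-values measure the spread between cultures of that line.

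In textbook accounts, UPF1 is an RNA helicase that binds the terminating ribosome. UPF2 and UPF3B connect it to an exon junction complex, a protein mark that splicing leaves upstream of each exon junction, so a stop codon well before the last junction marks an mRNA for decay. SMG6 then cuts the mRNA near the stop codon, while SMG5 helps to recruit decapping and deadenylation enzymes. In human cells the mRNAs of several of these factors, SMG5 among them, are themselves known targets of the pathway.

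The sequences on which the isoform results turn are the splice junctions that set 3 non-coding isoforms apart from the coding isoform of their gene. They are given 5′ to 3′ from the GENCODE 29 annotation of GRCh38.
SMG1-213, chr16:18925459-18926039, minus strand: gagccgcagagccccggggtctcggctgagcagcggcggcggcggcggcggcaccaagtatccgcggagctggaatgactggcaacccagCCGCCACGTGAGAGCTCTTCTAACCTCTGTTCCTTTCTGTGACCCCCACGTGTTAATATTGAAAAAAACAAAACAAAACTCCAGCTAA
UPF3A-204, chr13:114286600-114291663, plus strand: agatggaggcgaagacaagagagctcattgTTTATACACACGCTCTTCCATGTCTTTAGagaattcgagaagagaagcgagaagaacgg
UPF3A-206, chr13:114291763-114301760, plus strand: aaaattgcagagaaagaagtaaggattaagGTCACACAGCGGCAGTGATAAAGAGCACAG
In SMG1-213 the lower-case bases are the 90 bases it holds of exon 1, and the capitals are the first 88 bases of a 631-base terminal exon that lies within the first intron, up to an in-frame TAA. Read in the frame of the coding isoform, this stop is codon 59 after the start codon. In UPF3A-204 the capitals mark 29 bases added to the start of exon 7 where the 56 bases of exon 6 are skipped, and an in-frame TAG closes the added bases. In UPF3A-206 the capitals mark the start of exon 9, which follows exon 7 directly because the 161 bases of exon 8 are skipped, and an in-frame TGA lies within those capitals. The map of isoform exons shows where these exons lie in each gene.

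**Figure D1:**
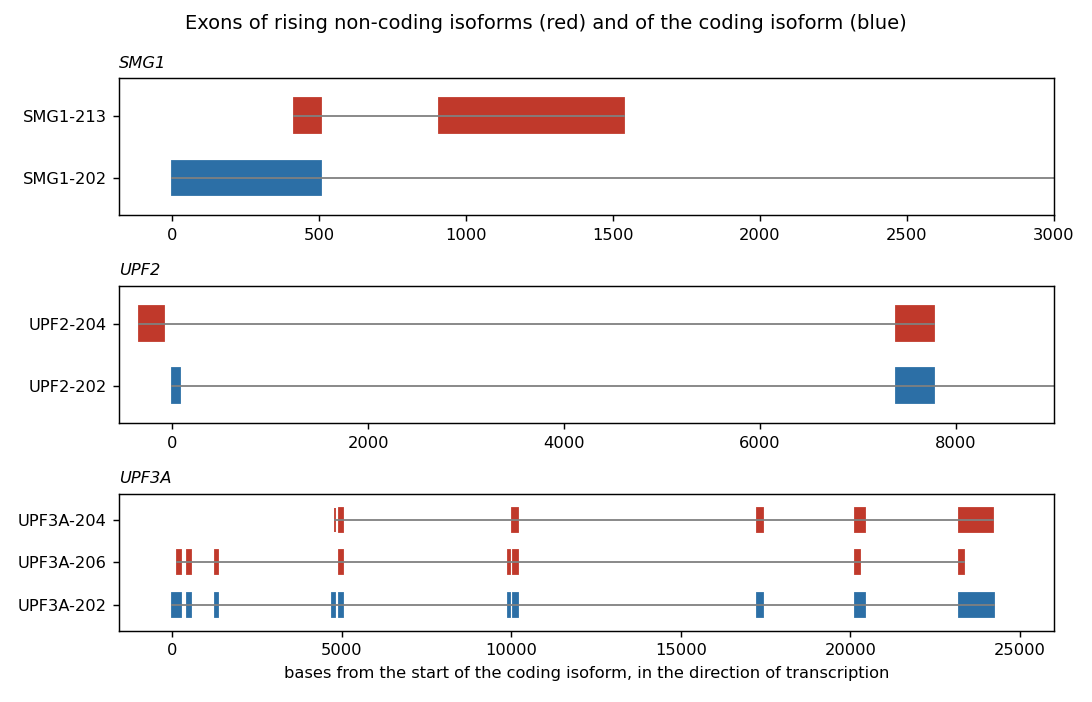
Exons of 4 non-coding isoforms that were higher after hMGL (red) and of the coding isoform of the same gene (blue), for SMG1, UPF2 and UPF3A. The horizontal axis is the distance in bases from the start of the coding isoform in the direction of transcription, and only the first part of SMG1 and UPF2 is drawn; SMG1-213 ends inside the first intron, UPF2-204 starts before the coding isoform, and UPF3A-204 and UPF3A-206 each lack internal exons.

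Libraries held 50760266 to 53682075 estimated counts in treated cultures and 53441686 to 59954677 in control cultures. Of the 22580 genes tested, 69.4% passed the test (34.9% higher and 34.5% lower after hMGL), and of the 15421 protein-coding genes among them 78.3% passed (38% higher and 40.3% lower), so a passed test is the common outcome in these data and the counts of factors below are read against those shares. The melanocyte marker SOX10 averaged 350 ± 6.77 CPM (counts scaled by library size) in treated cultures and 417 ± 31.4 CPM in control cultures (SD, n = 3 each). MITF averaged 41.5 CPM in treated cultures and 43.8 CPM in control cultures, while MLANA, TYR and DCT stayed at or under about 1 CPM in every library, so these pigment genes were near 0. S100B, a calcium-binding protein of the lineage, fell to 5.83 ± 1.12 CPM in treated cultures, against 38.6 ± 0.831 CPM in control cultures (edgeR adjusted p = 3.01e-06). PMEL, a melanosome protein, rose to 2.05 ± 0.0987 CPM in treated cultures, against 0.556 ± 0.0505 CPM in control cultures (edgeR adjusted p = 5.25e-08). The part of this change in lineage markers in the results below was not tested. Of the 7 melanocyte markers 6 were tested, 2 rose, 2 fell and 2 did not pass. The 6 markers of epithelial, blood, endothelial and connective tissue cells summed to 2.49 to 3.01 CPM in treated cultures and 2.52 to 3.05 CPM in control cultures, and of the 3 tested KRT5 rose and COL1A1 fell, both at under 2 CPM in every library. Levels are given relative to the other RNA of a library: fewer cells and less RNA per cell cannot be told apart.

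Of the 9 factors, 7 rose after hMGL, 1 fell and 1 did not pass the test, by edgeR's quasi-likelihood test with Benjamini-Hochberg adjustment over all genes. SMG5 and SMG8 rose 2.10-fold and 2.06-fold, and UPF2, UPF3B, SMG1, UPF3A and UPF1 rose by 1.20-fold to 1.46-fold. The median log2 fold change was 0.39 over the 9 factors and -0.02 over all genes tested. The treated and control values did not overlap for 8 of the 9 factors, which held for 73.3% of all genes tested. A rise of at least 2-fold was seen for 2 of the 9 factors, SMG5 and SMG8, and for 14.6% of all genes tested. The plot of CPM by factor shows each library.

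**Figure D2:**
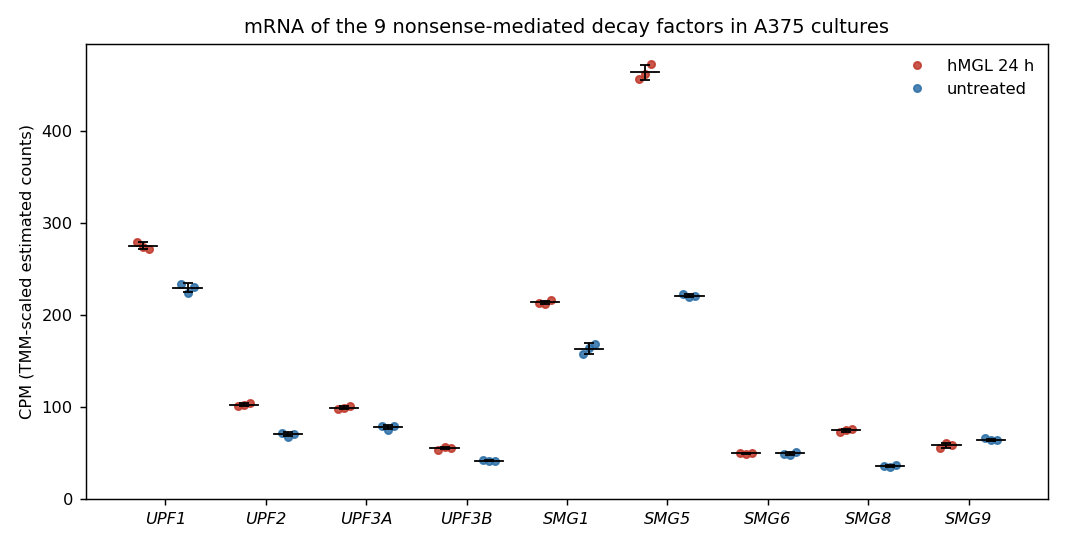
CPM (TMM-scaled counts, linear axis) of the 9 nonsense-mediated decay factors in each of 3 hMGL-treated (red) and 3 untreated (blue) A375 cultures, with the mean and SD over 3 libraries in black. Treated libraries lie above all control libraries for 7 factors, below them for SMG9 and among them for SMG6.

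UPF1 (chr19:18831938-18868236, plus strand), the helicase on which the pathway depends, was at 279, 274 and 271 CPM in treated replicates 4 to 6, against 234, 224 and 230 CPM in control replicates 1 to 3. The groups did not overlap, and the rise was small. UPF1 had a log2 fold change of 0.26 ± 0.03 (SE), or 1.20-fold, with an edgeR adjusted p of 2.15e-07, and 37.6% of all genes tested had a higher log2 fold change.

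UPF2 (chr10:11920022-12043170, minus strand), the adaptor that bridges UPF1 and the UPF3 proteins, was at 101, 102 and 104.2 CPM in treated cultures, against 71.6, 67.6 and 71.1 CPM in control cultures. All treated libraries were above all control libraries. UPF2 had a log2 fold change of 0.55 ± 0.03 (SE), or 1.46-fold (edgeR adjusted p = 9.48e-11).

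UPF3B (chrX:119805311-119852998, minus strand) and UPF3A (chr13:114281584-114305817, plus strand) are paralogs that bind the exon junction complex, and UPF3B is the more active in decay. UPF3B was at 53.6, 56.7 and 55.7 CPM in treated cultures and 41.8, 41.2 and 40.9 CPM in control cultures. UPF3A was at 97.9, 99.0 and 100.5 CPM in treated cultures and 79.1, 75.2 and 79.4 CPM in control cultures. Neither paralog overlapped between groups. UPF3B rose 1.34-fold, a log2 fold change of 0.42 ± 0.04 (SE, edgeR adjusted p = 1.19e-08), and UPF3A rose 1.27-fold, a log2 fold change of 0.35 ± 0.03 (SE, edgeR adjusted p = 4.46e-08). The rise of UPF3A was not in the counts assigned to its coding isoforms. Summed over protein-coding transcripts alone, its log2 fold change was -0.52 (edgeR adjusted p = 6.25e-05). This value rests on how reads were divided between isoforms, which was not tested.

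SMG1 (chr16:18804853-18926454, minus strand), the kinase that phosphorylates UPF1, was at 213, 212 and 216 CPM in treated cultures, against 157, 164 and 169 CPM in control cultures. The groups did not overlap. The log2 fold change in counts was 0.39 ± 0.03 (SE), or 1.31-fold (edgeR adjusted p = 3.17e-09). With the effective length of the isoforms as an offset the same log2 fold change was 0.93, and on the log2(TPM + 1) scale it was 1.01 by limma, where a short isoform described below carries more weight. An antisense gene, AC138811.1, overlaps SMG1, and the use of strand in the counting is not stated.

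SMG8 (chr17:59209400-59215247, plus strand), a subunit that restrains the SMG1 kinase, was at 72.6, 74.6 and 76.1 CPM in treated cultures, against 35.8, 35.2 and 37.3 CPM in control cultures. Every treated library was well above every control library. The log2 fold change was 1.04 ± 0.04 (SE), or 2.06-fold (edgeR adjusted p = 5.30e-14), and 14.2% of all genes tested had a higher one. An overlapping gene on the same strand, AC099850.2, shares 12.2% of the 31-base words of the main SMG8 isoform, so a part of these counts could be split with it.

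SMG9 (chr19:43727992-43754990, minus strand), the partner of SMG8 in the kinase complex, was the factor that fell. It was at 55.5, 60.3 and 58.9 CPM in treated cultures, against 65.7, 64.3 and 63.6 CPM in control cultures. The groups did not overlap, but they lay close. The log2 fold change was -0.15 ± 0.04 (SE), or 1.11-fold lower (edgeR adjusted p = 0.00211), and it did not pass with plain library totals (log2 fold change -0.07, adjusted p = 0.0806). Without treated replicate 4, the lowest library, the log2 fold change was -0.08 (edgeR adjusted p = 0.0393). Over coding transcripts alone the log2 fold change of SMG9 was -0.02 (edgeR adjusted p = 0.599).

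SMG5 (chr1:156249224-156282825, minus strand), the adaptor that passes phosphorylated UPF1 targets to decapping and deadenylation, was at 457, 462 and 472 CPM in treated cultures, against 223, 219 and 221 CPM in control cultures. The 3 libraries of each group lay within a narrow band and the groups were far apart. SMG5 had a log2 fold change of 1.07 ± 0.03 (SE), or 2.10-fold, with the lowest adjusted p of the 9 factors (edgeR, 4.45e-16), and 13.8% of all genes tested had a higher log2 fold change.

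SMG6 (chr17:2059839-2303771, minus strand), the endonuclease of the pathway, was at 49.6, 49.2 and 49.9 CPM in treated cultures, against 49.2, 48.2 and 50.9 CPM in control cultures. The treated values lay inside the range of the control values. The log2 fold change was 0.00 ± 0.04 (SE, edgeR adjusted p = 0.939). Other genes, HIC1 and SRR among them, overlap the span of SMG6.

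The 3 genes whose log2 CPM over the 6 libraries lay nearest to that of SMG5, after the mean was subtracted, were GUF1, ENTR1 and HMGXB3. Their root mean square distances were 0.00858, 0.0124 and 0.0132 on the log2 CPM scale. GUF1 averaged 154 ± 2.49 CPM in treated cultures and 74.0 ± 0.904 CPM in control cultures (SD, n = 3 each). This is a likeness of levels in 6 libraries of 2 groups.

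Levels of different genes were set side by side per length, in TPM, a unit that also moves with the RNA of the signal recognition particle, RN7SL1, which took 18.5% to 22.1% of the TPM of treated libraries and 16.1% to 19.4% of control libraries. Over coding isoforms, SMG5 was the most abundant factor, at 54.4 ± 3.12 TPM in treated cultures and 24.0 ± 1.62 TPM in control cultures (SD, n = 3 each). UPF1 followed with 26.5 ± 2.32 TPM in treated cultures and 20.7 TPM (19.3 to 21.8) in control cultures, and the ranges of SMG5 and UPF1 did not overlap in either group. UPF3B, at 21.8 ± 0.677 TPM in treated cultures and 15.1 ± 1.26 TPM in control cultures, came next.

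In treated cultures SMG1 (19.8 ± 2.16 TPM), UPF2 (18.1 ± 0.948 TPM) and SMG8 (17.1 ± 0.849 TPM) came after UPF3B, and each of these neighbours overlapped. Below them, SMG9 (10.2 ± 0.941 TPM), UPF3A (7.86 ± 0.668 TPM) and SMG6 (4.83 ± 0.509 TPM) were apart from each other. In control cultures SMG1 (14.6 ± 0.807 TPM) overlapped with UPF3B, and UPF2 (11.9 ± 0.702 TPM) overlapped with UPF3A (10.8 ± 1.33 TPM). SMG9 (9.15 ± 0.754 TPM), SMG8 (7.89 ± 0.289 TPM) and SMG6 (4.63 ± 0.306 TPM) closed the order in control cultures without overlap. SMG8 thus stood above SMG9 and UPF3A in treated cultures and below both in control cultures.

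Counting all isoforms in TPM changed the order, since UPF3A then came first with 69.2 ± 5.72 TPM in treated cultures and 49.2 ± 3.23 TPM in control cultures (SD, n = 3 each). Most of the UPF3A level was in isoforms annotated as non-coding, and this share differed widely between the factors. Isoforms annotated as processed transcripts, retained introns or nonsense-mediated decay targets made up 88.7%, 89.5% and 87.7% of UPF3A TPM in treated cultures and 74.9%, 80.5% and 79.0% in control cultures. For SMG5 the same share was 3.60%, 3.70% and 2.77% in treated cultures and 10.8%, 12.7% and 10.5% in control cultures. The plot of non-coding shares gives the other factors.

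**Figure D3:**
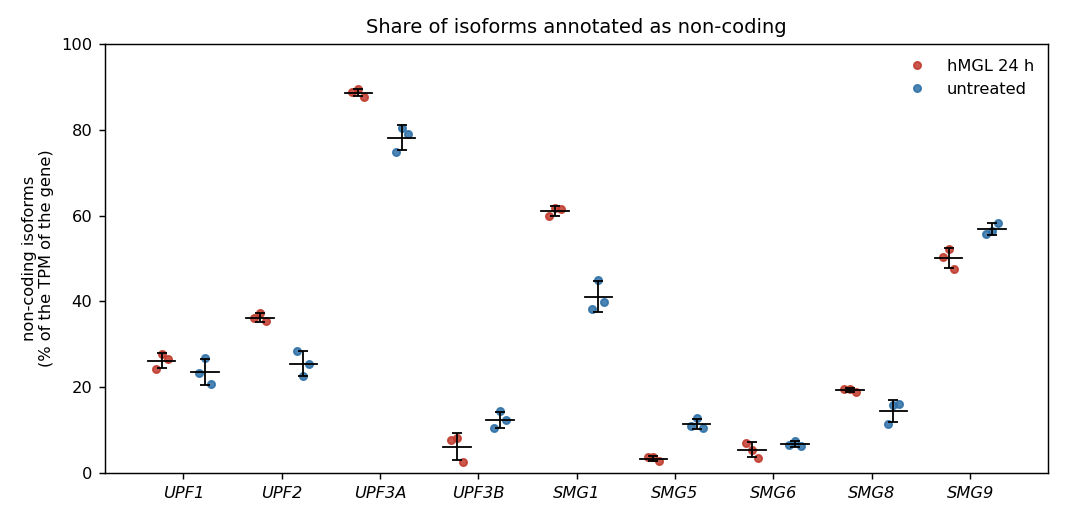
Share of the TPM of each factor that lies in isoforms annotated as non-coding (percent, axis from 0 to 100), in each of 3 hMGL-treated (red) and 3 untreated (blue) libraries, with mean and SD over 3 libraries. The treated share is above all control values for UPF2, UPF3A, SMG1 and SMG8, and below them for UPF3B, SMG5 and SMG9. Of these, SMG8, UPF3B and SMG9 did not pass the limma test of the ratio. How often such shares are apart over all genes was not computed.

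The class annotated as a nonsense-mediated decay target was thin in these genes. It held 3 of the 93 isoforms, SMG1-214, SMG8-205 and SMG9-206, beside 44 coding isoforms, 22 retained introns and 24 processed transcripts. SMG1-214 was at 0, 0.601 and 2.13 TPM in treated cultures and 1.07, 1.44 and 0.634 TPM in control cultures. SMG9-206 was at 0.0503, 0.0902 and 0.153 TPM in treated cultures and 0.104, 0.360 and 0.321 TPM in control cultures. SMG8-205 was listed at 0 in all libraries but control replicate 3, where it had 0.0416 TPM.

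The ratio of decay-annotated to coding TPM could be tested for SMG1 and SMG9, and neither passed. The log2 ratio changed by -1.46 ± 1.09 in SMG1 (SE, limma adjusted p = 0.406) and by -0.97 ± 0.44 in SMG9 (SE, limma adjusted p = 0.181). Over the 4238 genes tested for this ratio, 13.5% had a higher and 3.68% a lower ratio after hMGL, with a median log2 change of 0.19. The treated values of SMG1-214 ranged from 0 to the highest of the 6 libraries, and a change of the decay-annotated class was not detectable for SMG1 beside this spread. Of the 31-base words of SMG1-214, 75.8% occur in other genes and 1.69% in no other annotated transcript.

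With all non-coding classes summed, the ratio to coding TPM passed for 4 of the 9 factors by limma, higher for SMG1, UPF3A and UPF2 and lower for SMG5. Among the 9554 genes tested 12.5% had a higher and 7.32% a lower ratio. SMG1 had a log2 ratio change of 1.17 ± 0.12 (SE), or 2.24-fold (limma adjusted p = 0.000528), UPF3A one of 1.12 ± 0.14, or 2.17-fold (limma adjusted p = 0.00106), and UPF2 one of 0.72 ± 0.17, or 1.65-fold (limma adjusted p = 0.0213). In SMG5 the log2 ratio changed by -1.86 ± 0.21 (SE), or 3.62-fold lower (limma adjusted p = 0.000766). The UPF2 call did not pass when control replicate 2 or 3 or treated replicate 4, 5 or 6 was left out, with limma adjusted p from 0.0549 to 0.0716. For UPF3A the change was 0.30 with diffSpliceDGE, which sets a class against the whole gene, and the call held (adjusted p = 0.000275). The SMG1 call rests on the per-length scale, since with estimated counts in place of TPM the log2 change was 0.12 (limma adjusted p = 0.505).

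The other 5 factors did not pass in this ratio. UPF1, SMG6 and SMG8 had log2 ratio changes of 0.20, -0.30 and 0.46, with limma adjusted p of 0.421, 0.519 and 0.179. UPF3B and SMG9 had log2 ratio changes of -1.22 and -0.39, with limma adjusted p of 0.0866 and 0.0563. The retained introns and processed transcripts behind these ratios are short beside the coding mRNAs, so a ratio in TPM gives them more weight than a ratio in counts.

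At the level of single isoforms, 38 of the 93 averaged at least 1 TPM in a group. Of the 37 tested, 16 rose, 4 fell and 17 did not pass by edgeR's quasi-likelihood test. Of all 83015 transcripts tested 32.7% passed (17.5% rose and 15.2% fell), but these were filtered on counts and not on TPM. The 2 sets are therefore unlike, and shares by class over all transcripts were not computed. SMG1-215 and SMG5-203, among the 4 that fell, reached a mean of 1 TPM in control cultures alone. Of the 17 coding isoforms 9 rose and 1 fell, and of the 10 processed transcripts tested 6 rose and none fell. The coding isoform that fell was SMG9-201 (log2 fold change -0.37, edgeR adjusted p = 0.0252), and it did not pass with library totals, on the log2 TPM scale, or without control replicate 1 or 2 or treated replicate 4 or 6 (adjusted p from 0.0556 to 0.301). Among the 9 that rose, SMG1-203 did not pass without control replicate 2 or 3 or treated replicate 4, 5 or 6 (edgeR adjusted p from 0.0509 to 0.0633). SMG8-202 did not pass without control replicate 1, 2 or 3 or treated replicate 5 or 6 (edgeR adjusted p from 0.0649 to 0.130). Of the 9 retained introns 1 rose and 3 fell. The plot of isoform levels shows 12 of them by library.

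**Figure D4:**
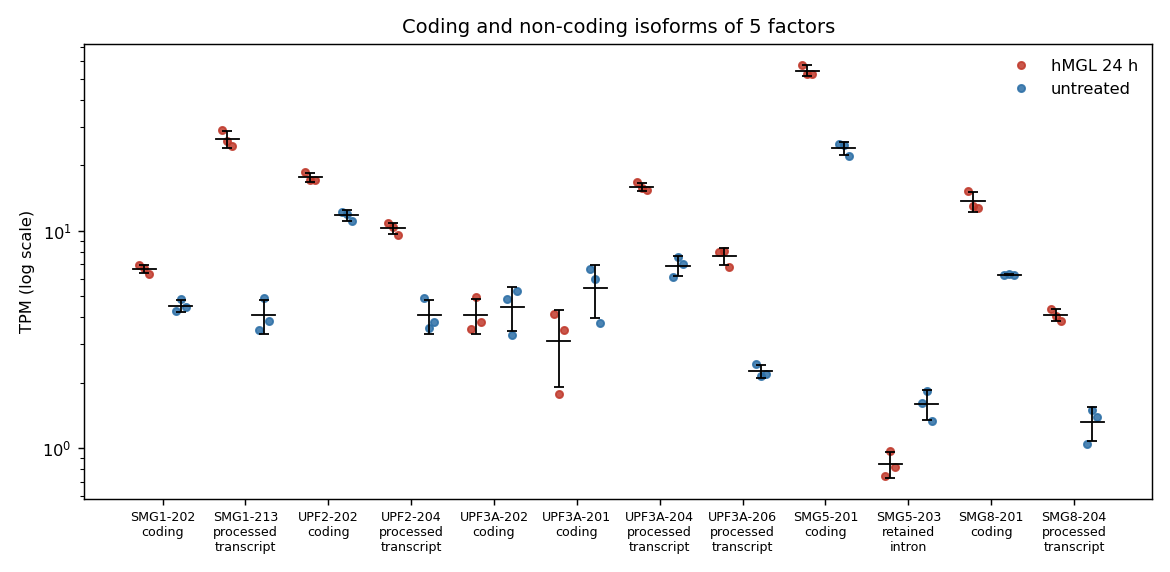
TPM (log axis) of 12 coding and non-coding isoforms of SMG1, UPF2, UPF3A, SMG5 and SMG8 in each of 3 hMGL-treated (red) and 3 untreated (blue) libraries, with mean and SD in black. SMG1-213 lies at 24.5 to 29.0 TPM in treated and 3.50 to 4.92 TPM in untreated libraries, and UPF3A-204, UPF3A-206, UPF2-204 and SMG8-204 are also apart. So are the coding isoforms SMG1-202, UPF2-202, SMG5-201 and SMG8-201 and the retained intron SMG5-203, the last lower in treated libraries. The coding isoforms UPF3A-202 and UPF3A-201 overlap between groups.

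SMG1-213 had the highest log2 fold change among these 37 isoforms. This isoform, whose junction opens the sequences given above, ends within the first intron of SMG1 and holds none of the kinase domain. It was at 29.0, 25.7 and 24.5 TPM in treated cultures, against 3.50, 4.92 and 3.83 TPM in control cultures. Every treated library was at several times the level of every control library. Its log2 fold change was 2.63 ± 0.14 (SE), or 6.21-fold (edgeR adjusted p = 6.2e-05), on a mean of 858 estimated counts in treated cultures and 146 in control cultures. It made up 52.0% ± 0.983 of SMG1 TPM in treated cultures and 16.4% ± 1.78 in control cultures (SD, n = 3 each).

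The terminal exon of SMG1-213 is largely its own, and 91.3% of its 31-base words occur in no other annotated transcript. Its in-frame stop lies in the last exon of the annotated isoform, with no junction after it. The main coding isoform of SMG1, SMG1-202, was at 6.94, 6.74 and 6.35 TPM in treated cultures and 4.27, 4.85 and 4.44 TPM in control cultures, a 1.41-fold rise (log2 fold change 0.49 ± 0.07 SE, edgeR adjusted p = 0.00268). The other long coding isoform, SMG1-211, did not pass (log2 fold change 0.20, edgeR adjusted p = 0.118). The shorter coding isoform SMG1-205 averaged 3.53 ± 0.657 TPM in treated cultures and 2.03 ± 0.233 TPM in control cultures (SD, n = 3 each), a 1.66-fold rise (edgeR adjusted p = 0.00542). The retained intron SMG1-215 fell (log2 fold change -0.60, edgeR adjusted p = 0.0354), but this did not pass with any of 5 of the 6 libraries left out, all but control replicate 3 (adjusted p from 0.0622 to 0.105), with library totals or on the log2 TPM scale.

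SMG1 has partial copies elsewhere on the genome whose transcripts share sequence with it, and 22.6% of the 31-base words of SMG1-202 occur in other genes. Of the 7 SMG1 and 3 UPF3A copies in the annotation, 9 were tested, 4 rose and none fell. SMG1P2 averaged 12.8 ± 0.497 CPM in treated cultures and 3.66 ± 0.524 CPM in control cultures, and SMG1P7 averaged 27.4 ± 0.639 CPM in treated cultures and 11.0 ± 0.345 CPM in control cultures (SD, n = 3 each). They rose 3.51-fold (edgeR adjusted p = 1.23e-11) and 2.48-fold (edgeR adjusted p = 1.61e-13). With the counts of the copies summed into SMG1 and UPF3A, which leaves out how reads were divided among them, the log2 fold change was 0.44 for SMG1 (edgeR adjusted p = 2.03e-10) and 0.35 for UPF3A (edgeR adjusted p = 3.74e-08). This does not bear on how reads were divided between the isoforms of a gene. The UPF3A copies were under 1 CPM in every library, while 49.7% of the 31-base words of UPF3A-202 occur in them.

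In UPF3A the isoforms moved apart. The coding isoforms UPF3A-202 and UPF3A-201 overlapped between groups, at 3.54, 4.94 and 3.80 TPM in treated cultures and 4.88, 3.30 and 5.25 TPM in control cultures for UPF3A-202, and neither passed the test on its own. UPF3A-204, which skips exon 6, was at 16.7, 15.6 and 15.5 TPM in treated cultures, against 6.10, 7.58 and 7.05 TPM in control cultures. UPF3A-206, which skips exons 4 and 8, was at 7.96, 8.10 and 6.83 TPM in treated cultures, against 2.44, 2.15 and 2.20 TPM in control cultures. Both rose with no overlap, UPF3A-204 by 2.18-fold (log2 fold change 1.12 ± 0.11 SE, edgeR adjusted p = 0.000662) and UPF3A-206 by 3.18-fold (log2 fold change 1.67 ± 0.12 SE, edgeR adjusted p = 0.000211).

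The processed transcript UPF3A-210, which averaged 15.3 ± 1.29 TPM in treated cultures and 10.5 ± 1.84 TPM in control cultures, rose by a log2 fold change of 0.48 (edgeR adjusted p = 0.0192). That call and the one of the retained intron UPF3A-212 (log2 fold change 0.44, edgeR adjusted p = 0.0179) each ended without single libraries: UPF3A-210 did not pass without control replicate 2 or 3 or treated replicate 4 or 6 (adjusted p from 0.0594 to 0.0800), nor UPF3A-212 without control replicate 1, 2 or 3 or treated replicate 6 (adjusted p from 0.0522 to 0.0673). The share of 31-base words found in no other annotated transcript was 3.24% for UPF3A-204 and 6.31% for UPF3A-206. For the coding isoforms UPF3A-202 and UPF3A-201 it was 1.19% and 0%. The levels of these isoforms therefore rest on few reads that tell them apart.

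UPF3A exon 4 is a cassette of 99 bases, a multiple of 3. UPF3A-201 and UPF3A-206 join exon 3 to exon 5 without it, and UPF3A-202, UPF3A-208 and UPF3A-210 hold it between them. Of the TPM of these isoforms alone, those without it held 34.4% ± 1.17 in treated cultures and 32.6% ± 3.31 in control cultures (SD, n = 3 each). These groups overlapped, and an exact two-sided permutation test gave p = 0.5. The share leaves out the other isoforms. Of these, UPF3A-204 and UPF3A-205 start within exon 4. UPF3A-204 made up 23.1% of UPF3A TPM in treated and 14.1% in control cultures, and UPF3A-205 17.9% and 21.2%. The ratio of UPF3A to UPF3B over coding isoforms was 0.378, 0.330 and 0.371 in treated cultures and 0.772, 0.649 and 0.711 in control cultures. The groups did not overlap, with an exact two-sided permutation p of 0.1, the smallest that 3 against 3 cultures allow. The coding ratio rests on how UPF3A reads were divided between isoforms. Over all isoforms the ratio averaged 2.97 ± 0.108 in treated cultures and 2.85 ± 0.109 in control cultures (SD, n = 3 each), with overlap and an exact permutation p of 0.3.

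The 21 non-coding isoforms of at least 1 TPM were read in the frame of the coding isoform of their gene, a check chosen after the values were seen, and a stop codon was found in 15. An in-frame stop more than 50 bases before the last junction, the usual rule for a decay target, was found in 6, all tested, of which 3 rose and 1 fell. The 3 that rose were UPF3A-204, with the stop 615 bases before the last junction, UPF3A-206, with 119 bases, and UPF3A-210. The one that fell was SMG1-215. In the other 9 with a stop, all tested, 3 rose and 2 fell. Isoforms that start after the start codon were read from the first codon they share with the coding isoform. All 3 UPF3A isoforms that rose here are of this kind. UPF3A-206 starts within exon 1, UPF3A-210 in the first intron and UPF3A-204 within exon 4. Whether their stops are in frame in the full mRNA was not tested. The last junction was that of the annotated isoform, and some isoforms end before the last exon of their gene. SMG8-204 ends within exon 3 of SMG8-201, which has an exon 4. SMG5-203 ends in the intron after exon 20 of SMG5-201, which has 22. The rule cannot be read for such isoforms, so the 9 are not a set that fails it. No in-frame stop was found in 6 isoforms, of which 5 were tested and 1, UPF2-204, rose. For these the rule cannot be read either.

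In UPF2, a processed transcript of 2 exons, UPF2-204, rose more than the main coding isoform, UPF2-202. UPF2-204 uses a first exon upstream of that of UPF2-202 and ends in the second exon. It was at 10.8, 10.4 and 9.60 TPM in treated cultures, against 4.93, 3.56 and 3.80 TPM in control cultures, a 2.39-fold rise (log2 fold change 1.26 ± 0.15 SE, edgeR adjusted p = 0.00173). UPF2-202 was at 18.6, 17.2 and 17.2 TPM in treated cultures, against 12.2, 12.0 and 11.0 TPM in control cultures, a 1.43-fold rise (log2 fold change 0.52 ± 0.03 SE, edgeR adjusted p = 0.000116). Both isoforms were apart between groups, while UPF2-204 has no 31-base word that another UPF2 isoform lacks. The coding isoform UPF2-203, of 22 exons, starts at the same base as UPF2-204 and was listed at 0 TPM in all libraries. Every base of UPF2-204 lies in a coding isoform. How reads divide between UPF2-204 and UPF2-203 was not tested, and the UPF2 ratio above rests on that division.

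SMG5 and SMG8 rose in their coding mRNAs. SMG5-201 was at 58.0, 52.6 and 52.6 TPM in treated cultures, against 24.9, 24.8 and 22.1 TPM in control cultures, a 2.16-fold rise (log2 fold change 1.11 ± 0.02 SE, edgeR adjusted p = 2.76e-06). The retained intron SMG5-203 went the other way, with 0.744, 0.971 and 0.821 TPM in treated cultures and 1.61, 1.84 and 1.34 TPM in control cultures (log2 fold change -0.97, edgeR adjusted p = 0.0262), which did not pass without control replicate 1, 2 or 3 or treated replicate 4 or 6 (adjusted p from 0.0562 to 0.0753).

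SMG8-201 averaged 13.7 ± 1.43 TPM in treated cultures and 6.26 ± 0.0327 TPM in control cultures (SD, n = 3 each), a 2.07-fold rise (log2 fold change 1.05 ± 0.06 SE, edgeR adjusted p = 9.93e-05). The short SMG8-204 was at 4.37, 4.07 and 3.86 TPM in treated cultures, against a mean of 1.31 ± 0.236 TPM in control cultures (log2 fold change 1.55 ± 0.21 SE, edgeR adjusted p = 0.00259). The share of non-coding TPM of SMG8 did not pass the ratio test above.

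In UPF1 and UPF3B the main coding isoforms rose, and their other isoforms of at least 1 TPM did not pass. UPF1-201 averaged 20.1 TPM (18.3 to 22.4) in treated cultures and 15.4 TPM (14.1 to 16.9) in control cultures (log2 fold change 0.32, edgeR adjusted p = 0.00362). UPF3B-202 averaged 20.6 ± 0.918 TPM in treated cultures and 13.4 ± 1.24 TPM in control cultures (SD, n = 3 each), a 1.45-fold rise (edgeR adjusted p = 0.0002). The main coding isoforms of SMG6 and SMG9 did not pass: SMG6-201 averaged 4.48 ± 0.310 TPM in treated cultures and 4.17 ± 0.200 TPM in control cultures, and SMG9-211 averaged 8.15 ± 0.423 TPM in treated cultures and 7.49 ± 0.516 TPM in control cultures. The retained intron SMG9-203 fell (log2 fold change -0.80, edgeR adjusted p = 0.0135), and without treated replicate 4 or 6 it did not pass (adjusted p of 0.0520 and 0.0532).

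Genes that work with the 9 factors were taken from lists of the pathway, and their counts and medians are to be read beside all genes tested, of which 34.9% rose and 34.5% fell, with a median log2 fold change of -0.02. Of 9 other factors, 3 rose, 3 fell and 3 did not pass, with a median log2 fold change of -0.03. DHX34, a helicase that promotes UPF1 phosphorylation, averaged 184 ± 3.75 CPM in treated cultures and 87.4 ± 1.25 CPM in control cultures, a 2.11-fold rise (edgeR adjusted p = 1.88e-15). GNL2 rose 1.72-fold and PPP2CA, a catalytic subunit of protein phosphatase 2A, rose 1.63-fold. PPP2R1A, the scaffold subunit of the same phosphatase, fell by 0.85 on the log2 scale, and RUVBL2 and RUVBL1, ATPases that interact with SMG1, fell by 0.35 and 0.29.

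Of 12 exon junction complex proteins and partners, 3 rose, 6 fell and 3 did not pass, with a median log2 fold change of -0.16. CWC22, the splicing factor that loads EIF4A3, rose 1.80-fold, PYM1, which takes the complex apart, rose 1.69-fold, and CASC3 rose 1.16-fold. ALYREF fell by 1.02 on the log2 scale, PNN fell by 0.97 and RBM8A, a core subunit, fell by 0.50. The core subunits EIF4A3, MAGOH and MAGOHB did not pass.

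Of 10 genes of translation termination and the mRNA cap and tail, 3 rose, 5 fell and 2 did not pass, with a median of -0.11. GSPT2, a copy of the release factor GSPT1, averaged 87.9 ± 1.51 CPM in treated cultures and 23.6 ± 0.862 CPM in control cultures, a 3.72-fold rise (edgeR adjusted p = 3.14e-17). NCBP2, the cap-binding subunit, rose 2.07-fold and ETF1, the release factor that reads stop codons, rose 1.31-fold. PABPC1 and PABPC4, the poly(A)-binding proteins, fell by 0.91 and 1.28 on the log2 scale, and CTIF fell by 0.69.

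Of 17 decapping and decay enzymes, 9 rose, 7 fell and 1 did not pass, with a median of 0.08. LSM1 rose 1.83-fold, DCP1A 1.52-fold and EDC3 1.55-fold. XRN2, a nuclear exonuclease, fell by 0.85 on the log2 scale, EXOSC10 fell by 0.71 and EDC4 fell by 0.54. Each of these 4 lists held genes that rose and genes that fell, as did the genes tested as a whole.

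Of 13 genes listed as known decay targets, 11 rose and 2 fell, with a median log2 fold change of 1.28. Many of these genes are also induced in the amino acid stress response, as ATF3, DDIT3 and GADD45A are. GADD45B rose 22.2-fold, ATF3 27.1-fold and GADD45A 10.9-fold (edgeR adjusted p of 1.47e-21, 4.67e-21 and 5.80e-21). Of the host RNAs of small nucleolar RNAs in this list, GAS5 and SNHG12 fell by 0.75 and 0.59 on the log2 scale. ZFAS1, SNHG1 and SNHG15 rose 2.11-fold, 2.43-fold and 6.46-fold (edgeR adjusted p of 6.53e-15, 0.000697 and 2.56e-18). The part of decay and of transcription in these changes was not tested.

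Promoter windows from RefSeq (GRCh38.p14), 250 bases before to 50 after an annotated start, were available for 8 of the 9 factors in 15 windows. SMG8 had no window. Read on both strands, TGATGNAA, the core of an amino acid response element, and TGACGTCA, the cyclic AMP response element, were in none of the 15 windows, against 3.62% and 1.85% of 35116 promoters. CACGTG was in 1 UPF2 window and 1 SMG6 window, against 7.26% of all promoters. These are matches of letters in short windows, and at such shares 15 windows are too few for an absence to be read.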

How the data were processed

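Total RNA of 6 A375 cultures was sequenced. The deposited tables list 244939 transcripts per library with estimated counts (not whole, not scaled between libraries) and TPM, per the file headers. Tools listed without a role are kallisto 0.45.0 and DESeq2 1.30.0, per the submitters' processing notes. The genome build, the index release and the use of strand are not given in the sources used here. Identifiers were matched to GENCODE 29, which placed 203436 transcripts and left out 41503, with 4.86% to 5.13% of the counts of a library. The tables differed from GENCODE 29 in the length of 8 isoforms of the 9 genes, and 2 annotated isoforms were not analysed here.

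Estimated counts were summed to genes and rounded, filtered with filterByExpr (minimum count 10, minimum total 15), scaled with edgeR's TMM factors, and tested with the quasi-likelihood test of edgeR 4.0.16 (robust, two-sided) in R 4.3.3, with Benjamini-Hochberg adjustment over all genes and a threshold of 0.05. CPM are counts scaled by the TMM-adjusted library size, so each change is relative to the other genes. Transcripts were tested in the same way. Ratios of non-coding or decay-annotated TPM to coding TPM were tested with limma 3.58.1 on log2 values after adding 0.1 TPM to each class, over genes with a mean of at least 10 estimated counts in both classes. The ratio over all non-coding classes was added because only 3 isoforms of the 9 genes are annotated as decay targets. The common biological coefficient of variation was 0.0740. How reads were divided between isoforms adds an error that the tables do not give. The scripts were checked on simulated data.

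The members and all lists (other pathway factors, exon junction complex, termination and cap, decapping and decay, decay targets, copies, melanocyte and other cell type markers) were chosen with earlier results of these data known. Isoforms named were taken from those of at least 1 TPM in a group or highest in their class, and from each list up to 3 genes that rose and 3 that fell are named, lowest adjusted p first. One gene of the list of other pathway factors is not reported here. EIF4A3, MAGOH, MAGOHB, MITF, MLANA, TYR, DCT, ZFAS1, SNHG1 and SNHG15 are named beyond that rule, chosen after their values were seen. Other settings numbered 21, and 2 kinds were added after seeing the data, with DESeq2 1.42.0 among the tools.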

Additional observations from a re-analysis of the deposited data

How the results depend on the processing

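No paired analysis was possible because the groups share no replicate numbers. Of the values of single genes and isoforms under the alternatives, 530 kept their direction and side of the threshold, 49 no longer passed, 11 newly passed and 2 reversed. The 2 that reversed were UPF3A, with a log2 fold change of -0.52 over protein-coding transcripts only, and the SMG1 ratio of decay-annotated to coding TPM, which was 1.17 with all non-coding classes. Over the 16 alternatives of the gene test, 6 to 7 factors rose. The number that fell, 1 (SMG9), was 0 with library totals and with limma on log2(TPM + 1) or log2(TPM + 0.1). Over protein-coding transcripts only it was again 1, but the factor was UPF3A, and SMG9 did not pass. The decay-annotated ratio passed for 729 genes, against 1390 with a pseudocount of 1 TPM, 1895 with all non-coding classes, 438 with diffSpliceDGE, and 435 to 575 with 1 library left out (475 without treated replicate 5 and 435 without treated replicate 6). With all non-coding classes in its place, 3 factors were higher and 1 lower, against 0 and 0. That wider ratio and its settings were chosen after seeing the data. It passed for 1895 genes, against 2890 with a pseudocount of 1 TPM. The number of factors lower in it, 1, was 3 with a pseudocount of 1 TPM, and 2 with estimated counts, with at least 50 counts in each class or with diffSpliceDGE. The SMG1 log2 change in it was 0.07 with diffSpliceDGE (adjusted p = 0.640). The causes were not tested. With 3 cultures a group and shared sequence between isoforms and copies, isoform levels are less firm than gene levels.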
